A study of Mus musculus with 3 samples.

Results

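The 10 genes described here encode the machinery of MHC antigen presentation and the immunoproteasome: the class I heavy chains H2-K1 and H2-D1, their light chain B2m, the peptide transporter subunits Tap1 and Tap2, the immunoproteasome subunits Psmb8, Psmb9 and Psmb10, the class II chain H2-Ab1 and the class II invariant chain Cd74. They were chosen by name, as all non-control probes whose gene name on the array is one of these symbols. The rule found 21 probes for the 10 genes, of 41167 probes and 27724 gene names on the array. Expression was measured in C3H10T1/2 cells, a fibroblast-like line from mouse embryos in which transformation by carcinogens is assayed, in 3 groups that were left untreated or given hexavalent chromium, Cr(VI), at 0.01 uM or 1 uM. In each group 3 flasks were seeded with 2000 cells, Cr(VI) was added 24 h later for 48 h where it was given, and the cells were kept in fresh medium until day 15, when RNA was isolated. The arrays therefore describe cultures after exposure had ended. Each group had 1 Cy3-labelled array, so no test between groups was possible. Whether an array's RNA came from 1 flask or from several is not given in the labels. The lipoic acid and BALB/c 3T3 experiments that the series title names were not analysed here.

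In class I presentation, proteasomes cut cytosolic proteins into peptides, the TAP transporter carries the peptides into the endoplasmic reticulum, and a heavy chain bound to β2-microglobulin displays them at the surface of nearly all nucleated cells. Interferons are known to replace the constitutive catalytic subunits of the proteasome with Psmb8, Psmb9 and Psmb10, which together form the immunoproteasome. In class II presentation, which is typical of dendritic cells, B cells and macrophages, the invariant chain CD74 holds new class II dimers and guides them to endosomes, where cathepsins degrade it. CD74 also serves as a surface receptor for the cytokine MIF.

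A probe's level is given as log2 of its processed signal minus the 75th percentile of its array, so 0 is that percentile, and a difference of 1 is a 2-fold difference. Levels are compared between arrays for 1 probe and never between probes. By the scanner software's flag, between 36.4% and 41.8% of all probes were well above background on the 3 arrays. Spots of 1 probe printed several times had a median SD of 0.062 to 0.072 in log2 units. The SE given with a difference comes from the scanner software's error model, is technical, and leaves out any variation between cultures. Scaling on 5 spike-in controls instead of the 75th percentile put the median of all genes at 0.65 for 1 uM against untreated and at 0.34 for 0.01 uM against untreated, against -0.02 and 0.04 with the 75th percentile. All differences below are relative to the 75th percentile. With 1 uM against untreated, 693 of 12275 genes passed 2-fold upwards and 605 downwards, and these counts were 3113 and 175 with spike-in scaling, 290 and 451 with normexp background correction.

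Of the 21 probes, 13 were well above background in untreated cells, 13 at 0.01 uM and 14 at 1 uM. They covered 7, 7 and 8 of the 10 genes. Cd74 was the gene that passed on the 1 uM array alone. The 2 Psmb8 probes, the 4 H2-Ab1 probes and 1 of the 3 H2-D1 probes were not well above background on any array. Where a gene had several probes, the brightest one over the 3 arrays stood for it in counts, and the others are given beside it.

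**Figure D1:**
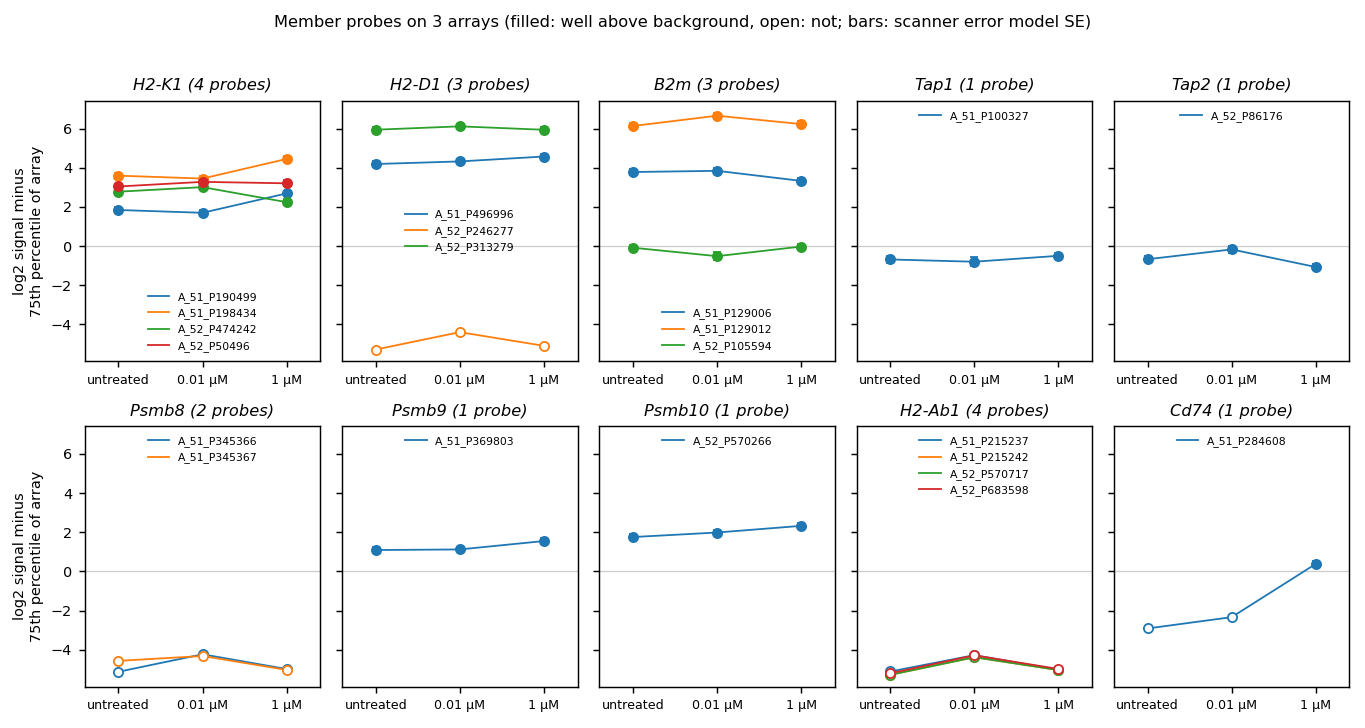
Level of each of the 21 probes of the 10 genes on the untreated, 0.01 uM and 1 uM arrays (log2 signal minus the 75th percentile of the array, 1 line per probe, filled points well above background, open points not, bars the scanner error model SE). Cd74 is filled on the 1 uM array alone, at 0.38, and the Psmb8 and H2-Ab1 probes are open throughout. The lines of the 4 H2-K1 probes do not all move in the same direction from untreated to 1 uM.

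After 1 uM Cr(VI), Cd74, the invariant chain of class II, read 9.83-fold above its dim untreated value, or 4.56-fold with normexp background correction. H2-K1, a classical class I heavy chain, was 1.81-fold higher by its brightest probe. The immunoproteasome subunits Psmb10 and Psmb9 were 1.49-fold and 1.38-fold higher. Tap2 differed by -0.40 on the log2 scale (SE 0.23), or 0.28 with spike-in scaling, and B2m and H2-D1 differed by 0.10 and -0.00 at their brightest probes (SE 0.20 each). Among the 8 genes compared, 1 passed 2-fold upwards, as did 5.65% of all genes compared, and 0 passed it downwards, as did 4.93%. By probe, 1 of 14 was at least 2-fold higher, where 5.35% of 17904 probes were. At 1.5-fold, 2 of the 8 were higher, Cd74 and H2-K1, where 14.0% of all genes were. With 8 genes these counts do not set the group apart from the background. The median difference over the 8 genes was 0.32, against -0.02 over all genes compared. With spike-in scaling the 2 medians were 1.01 and 0.65. Cd74 entered the 8 genes through the 1 uM array alone. With both arrays required above background, which drops Cd74, the medians were 0.19 and -0.03. Without a filter on dim probes they were 0.14 and 0.15, so the distance from all genes turns with the filter.

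**Figure D2:**
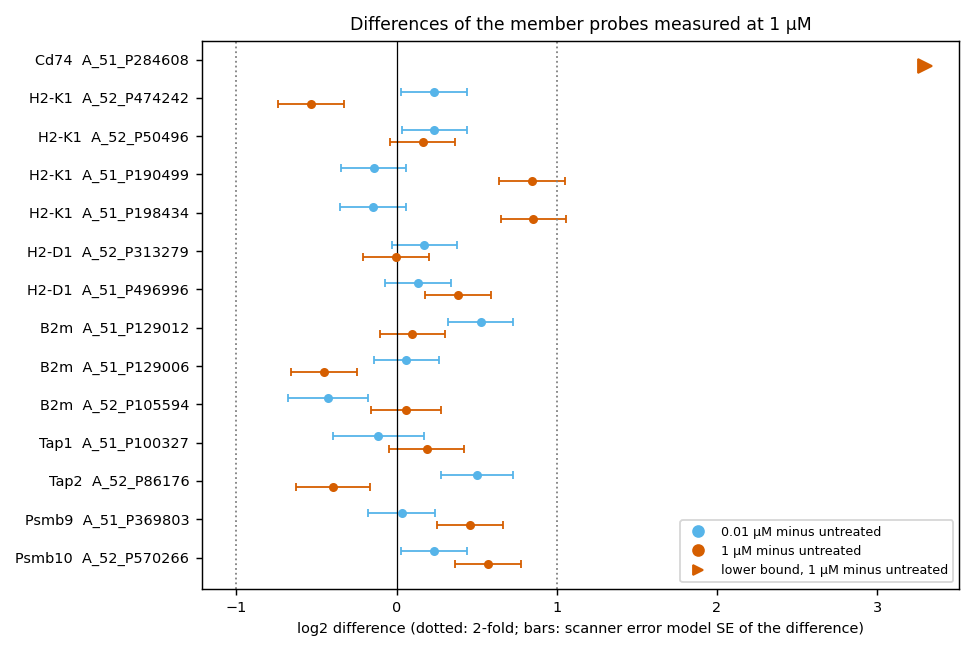
Log2 difference from untreated of the 14 probes measured at 1 uM, for 0.01 uM (blue) and 1 uM (orange), with the scanner error model SE of the difference. The triangle, labelled a lower bound, is taken at a dim untreated reading, and dotted lines mark 2-fold. Cd74 lies at 3.30 at 1 uM, the other 13 probes lie within 2-fold at both doses, and the H2-K1 probes at 1 uM spread between -0.54 and 0.85.

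Cd74 was read by 1 probe, A_51_P284608, at chr18:60972075-60972132 (mm9, as the array files give it). Its processed signals, in scanner units, were 92.4 in untreated cells, 102 at 0.01 uM and 981 at 1 uM. The first 2 values were not well above background, so they have no order. Its levels were -2.91, -2.34 and 0.38. The difference of 1 uM from untreated was 3.30 (SE 0.36), or 9.83-fold, taken at the dim untreated reading. That reading lay above the array's lowest detected level, -2.98, so the fold carries its error and is not a strict bound. The difference of 1 uM from 0.01 uM was at least 2.49 (SE 0.42), a lower bound of 5.63-fold taken at the lowest detected level. No fold was given for 0.01 uM against untreated. With normexp background correction the value for 1 uM against untreated was 4.56-fold, the lowest of the 9 settings, and with spike-in scaling it was 15.8-fold, the highest. A single spot on a single array carries the value, without a further probe for the gene.

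Most of the class II genes that work with Cd74 were not detected. The class II list held 12 genes, of which 11 were on the array and 4 could be compared at 1 uM. Cd74 alone passed 2-fold upwards, where 5.65% of all genes compared did, and 0 passed it downwards, where 4.93% did. The list median was -0.21, which was 0.43 with spike-in scaling. H2-Ab1, the beta chain of the I-A dimer, was not well above background with any of its 4 probes, which lie between chr17:34401723 and chr17:34406118 where mapped. Its 10-spot probe A_51_P215237 had signals of 20.1, 26.6 and 23.1 on the untreated, 0.01 uM and 1 uM arrays. H2-Aa, the alpha chain of that dimer, and H2-Eb1, H2-Eb2, H2-Ea, H2-DMb2 and H2-Ob were likewise not well above background on any array. H2-DMb1, a chain of the peptide exchange factor H2-M, was lower by 0.87 at 1 uM, with levels of -0.78, -0.63 and -1.65, and its partner H2-DMa differed by 0.18. H2-Oa, a chain of the H2-O dimer that restrains H2-M, was not well above background at 1 uM. Taken at its dim reading there it was 1.51-fold lower, at -0.60, and with spike-in scaling no difference could be given. Ciita, the master activator of class II genes, was not well above background on any array, at levels of -5.25, -4.36 and -5.09.

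The cathepsins and other endosomal genes that process the invariant chain and antigens were examined as a list. Of 9 genes 7 could be compared at 1 uM, 0 were at least 2-fold apart, and the median was -0.32, which was 0.36 with spike-in scaling. Ctss, the cathepsin best known for this step in dendritic and B cells, was not well above background on any array. Ctsl, the cathepsin that does so in thymic epithelium, was saturated on all 3 arrays and gave no fold. The second brightest, Ctsb, differed by -0.37, with a further probe at -1.18 and a value of 0.31 under spike-in scaling. Among partners of CD74 and MIF, 5 genes were compared and 0 were at least 2-fold apart, with a median of -0.07, or 0.61 with spike-in scaling. The co-receptor Cd44 was higher by 0.61, with a further probe at 0.69. The ligand Mif was at most at -0.28, or at most at 0.40 with spike-in scaling, a bound since its untreated spot was saturated. The intramembrane protease Sppl2a, which clears the invariant chain stub, differed by -0.07. Cxcr2 and Cxcr4, chemokine receptors that also bind MIF, were not well above background.

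H2-K1 was read by 4 probes, and they did not show the same pattern. The brightest, A_51_P198434 at chr17:34133055-34133114 (mm9, minus strand), was printed in 10 spots and had levels of 3.59 in untreated cells, 3.45 at 0.01 uM and 4.45 at 1 uM. Its 1 uM spots lay between 15469 and 17487 processed signal units, above the untreated spots, between 8155 and 8864, and above the 0.01 uM spots, between 5089 and 5947. After scaling, 9 of 9 spot pairs were higher at 1 uM than in untreated cells, by 0.81 to 0.94, and the mean difference was 0.85 (SE 0.20). At 0.01 uM the difference from untreated was -0.15 (SE 0.20), with 0 of 9 spot pairs higher, and it was 0.16 with spike-in scaling. The difference of 1 uM from 0.01 uM was 1.00 (SE 0.20), which is 2.00-fold. Spots of 1 array share their RNA and labelling, so they measure spotting and scanning error alone.

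**Figure D3:**
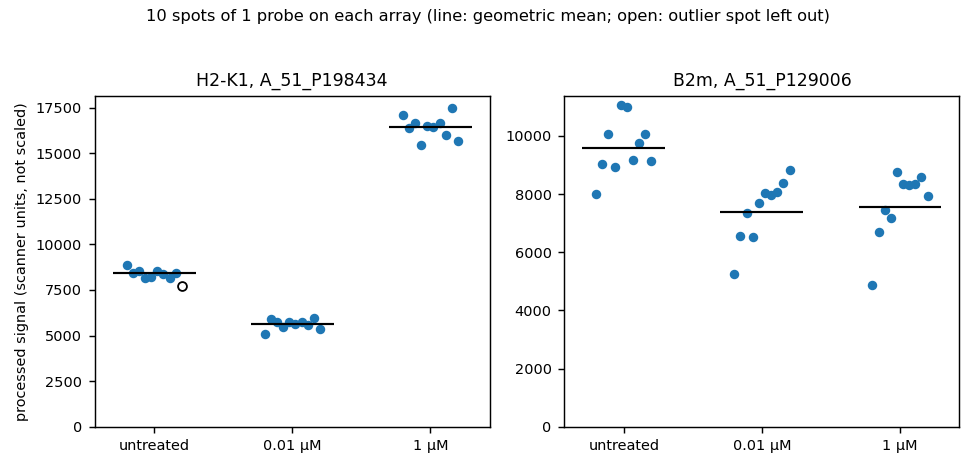
Processed signal of each of the 10 spots of 1 H2-K1 probe and of 1 B2m probe on the untreated, 0.01 uM and 1 uM arrays, before scaling between arrays (linear axis from 0, line the geometric mean, open point a spot flagged as an outlier and left out). The H2-K1 spots at 1 uM lie between 15469 and 17487 and do not overlap those of the other arrays, while the B2m spots at 1 uM lie between 4858 and 8748 and overlap them.

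The second H2-K1 probe, A_51_P190499, which the array files do not map, had levels of 1.84, 1.70 and 2.69 and differed by 0.85 at 1 uM against untreated (SE 0.20). These 2 probes lie towards the end of the transcript, starting at bases 1488 and 1405 of the sequences they were designed on. The other 2 probes start at bases 364 and 554. A_52_P474242, at chr17:34136478-34136724 (mm9), a span longer than the probe, had levels of 2.77, 3.01 and 2.24 and differed by -0.54 at 1 uM (SE 0.20), or 0.15 with spike-in scaling. A_52_P50496, at chr17:34136288-34136347 (mm9), had levels of 3.04, 3.28 and 3.20 and differed by 0.16 (SE 0.20). So the pair near the end was higher at 1 uM, and the pair nearer the start was lower in 1 case and within its SE in the other. Which pair follows the amount of H2-K1 transcript was not tested, and the 1.81-fold value rests on the pair near the end. The sequences of the probes nearer the start are shown whole, with a 30-base stretch common to the probes near the end, in which capitals mark the bases where they differ.
A_52_P474242: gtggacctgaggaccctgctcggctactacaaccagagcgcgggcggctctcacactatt
A_52_P50496: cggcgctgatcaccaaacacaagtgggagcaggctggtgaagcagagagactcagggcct
A_51_P198434: accttgattgttatcatCTtgacctagggc
A_51_P190499: accttgattgttatcatTGtgacctagggc
The last 2 stretches differ by C18T and T19G, counted from 1 at the 5′ end of the stretch with the base of A_51_P198434 first, and over their 57-base overlap the probes share 49 bases. The 2 probes were thus not designed on identical letters, and both were higher at 1 uM by 0.85. They overlap and read the same part of the gene, so these 2 values are not independent. None of the 21 probes shared a run of 25 bases with a probe of another gene name on the array. Class I genes are nevertheless close relatives, and binding of related transcripts to these probes was not tested. The match of the probes to the class I sequences of the cells used was not tested either.

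H2-D1, the other classical class I heavy chain measured, had 2 probes well above background. A_52_P313279, at chr17:35403132-35403191 (mm9), had levels of 5.94, 6.11 and 5.94 and differed by -0.00 at 1 uM and 0.17 at 0.01 uM (SE 0.20 each). A_51_P496996, at chr17:35403437-35403669, had levels of 4.19, 4.32 and 4.57 and differed by 0.38 at 1 uM and 0.13 at 0.01 uM (SE 0.20 each). At 0.01 uM both values lay within their SE of 0, and at 1 uM that of the second probe did not. The array files list a transcript of the related gene H2-Q2 for the first probe as well, and the 2 transcripts cannot be told apart by it. The remaining probe, A_52_P246277 at chr17:36323454-36323516, away from the other 2, was not well above background on any array.

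B2m, the light chain that every class I molecule needs, was read by 3 probes that also differed among themselves. A_51_P129012 had levels of 6.13 in untreated cells, 6.66 at 0.01 uM and 6.23 at 1 uM. Its signals were 48884, 52012 and 56453 units, not flagged as saturated, while S100a4 was flagged at 60862 units in untreated cells. Whether signals this high are compressed was not tested. The probe differed by 0.10 at 1 uM and by 0.52 at 0.01 uM (SE 0.20 each). The lower 75th percentile of the 0.01 uM array, 9.01 against 9.45 in untreated cells, enters the 0.52. The value at 0.01 uM, 1.44-fold, was 0.30 on the log2 scale with cyclic loess and 0.32 with quantile normalization. The 10-spot probe A_51_P129006 had levels of 3.78, 3.84 and 3.33 and differed by -0.45 at 1 uM (SE 0.20), with 0 of 10 spot pairs higher, but by 0.23 with spike-in scaling. At 0.01 uM it differed by 0.06, with 4 of 10 spot pairs higher. Its spots had SDs of 0.14, 0.22 and 0.26 on the 3 arrays, wider than the 0.039, 0.068 and 0.054 of the H2-K1 probe. A_52_P105594, at chr2:121974599-121974658 (mm9), outside the span of the other probes, had levels of -0.09, -0.52 and -0.03 and differed by 0.06 at 1 uM and -0.43 at 0.01 uM. No B2m difference had the same sign beyond its SE in all 3 probes at either dose.

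The promoters of the class I genes were compared because the brightest H2-K1 and H2-D1 probes gave unlike values at 1 uM while the sequences in front of them are alike. RefSeq promoter sequences (GRCm38.p6, 250 bases before to 50 after the start site) matched 7 of the 10 symbols. They are letters of the reference assembly, and the promoters of the cells used here were not read and may differ. Both strands were searched for 3 motifs, whose letters were chosen after the sequences had been read. GGGANTCCC, the inner part of the NF-κB site of the class I enhancer A with its central base left free, was found in H2-K1 and H2-D1, and in 252 of all 32851 promoters (0.767%). AANNGAAA, a core that interferon regulatory factors bind, was found in H2-K1, H2-D1 and B2m, and in 23.9% of all promoters. CCAAT, the core of the Y box, was found in these 3 and in Tap1 and Psmb9, and in 37.4% of all promoters. In Tap1 and Psmb9 it is 1 site, in the stretch these genes share. It starts at -222 from the Tap1 start site and at -8 from that of Psmb9, and whether it acts as a Y box was not tested. A match is a description of letters and not evidence of binding. For the 3 class I genes the stretch from the first of these motifs to the upstream Y box core is shown, 5′ to 3′ in the direction of the gene, with matches in capitals.
H2-K1 promoter: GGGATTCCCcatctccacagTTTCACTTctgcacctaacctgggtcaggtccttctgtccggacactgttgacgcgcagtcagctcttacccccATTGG
H2-D1 promoter: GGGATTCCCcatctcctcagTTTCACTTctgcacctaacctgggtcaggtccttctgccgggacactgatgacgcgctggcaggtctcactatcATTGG
B2m promoter: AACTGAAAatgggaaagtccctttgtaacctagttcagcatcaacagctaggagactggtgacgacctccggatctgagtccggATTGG
They lie at chr17:34000359-34000457 (minus strand), chr17:35262924-35263022 (plus strand) and chr2:122147550-122147638 (plus strand). The H2-K1 and H2-D1 stretches were identical at 88 of 99 bases, with the same NF-κB site, the same interferon core on the opposite strand and the same Y box. Their genes differed by 0.85 and -0.00 at 1 uM at the brightest probes, of which that of H2-D1 may also read H2-Q2. At other probes H2-K1 differed by 0.85, 0.16 and -0.54 and H2-D1 by 0.38, so the order of the 2 genes turns with the probe chosen.

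The wider class I list, 23 genes of heavy chains and related molecules with B2m, had 18 genes on the array and 13 compared at 1 uM. Of these 0 were at least 2-fold apart, and the median was -0.09, which was 0.60 with spike-in scaling and lay between -0.09 and 0.09 in the other settings. H2-K1 was the 1 gene at least 1.5-fold higher, where 14.0% of all genes compared were. The 3 genes at least 1.5-fold lower were non-classical, and they are named here after their values were seen. No share over all genes is given for 1.5-fold lower, so this count has no background beside it. Cd1d1, which presents lipids, differed by -0.97, Mr1, which presents vitamin metabolites, by -0.81, and H2-M3, which presents formylated peptides, by -0.79. All 3 remained below 0 with spike-in scaling, at -0.28, -0.13 and -0.11. H2-Q4, also named after its value was seen, differed by 0.52 at 1 uM and by 0.55 at 0.01 uM, higher at both doses.

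Tap1 and Tap2, which together form the peptide transporter, did not share a pattern. Tap1, read at chr17:34330854-34330913 (mm9), had levels of -0.69, -0.80 and -0.50 on the untreated, 0.01 uM and 1 uM arrays. Its differences from untreated were 0.19 at 1 uM (SE 0.24) and -0.12 at 0.01 uM (SE 0.28), both within the SE. Tap2, read at chr17:34351722-34352309 (mm9), had levels of -0.67, -0.17 and -1.07. It was 1.41-fold higher at 0.01 uM, by 0.50 (SE 0.22), and at 1 uM differed by -0.40 (SE 0.23), or 0.28 with spike-in scaling. At 1 uM it was 1.86-fold lower than at 0.01 uM, with a difference of -0.90 (SE 0.23). Tap2 was thus highest at the lower dose, while the order of the 1 uM and untreated arrays turned with spike-in scaling. In the list of peptide loading and trimming genes 14 of 15 were compared at 1 uM, and 0 were at least 2-fold higher or lower. Its median was 0.05, and 0.73 with spike-in scaling. Tapbp, the tapasin that joins TAP to the heavy chain, differed by -0.02, with a further probe at -0.20, and the trimming peptidase Erap1 by 0.41. Canx, the chaperone of new heavy chains and one of the 2 brightest, differed by -0.09, and the brightest, the translocon subunit Sec61g, was saturated on the 1 uM and untreated arrays and gave no fold.

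The immunoproteasome subunits did not appear as a set of 3. Psmb10, read at chr8:108459677-108459736 (mm9), had levels of 1.76 in untreated cells, 1.99 at 0.01 uM and 2.33 at 1 uM. It differed from untreated by 0.57 at 1 uM (SE 0.20) and by 0.23 at 0.01 uM (SE 0.21). Psmb9, read at chr17:34319174-34319233 (mm9), had levels of 1.09, 1.12 and 1.55 and differed by 0.46 at 1 uM and by 0.03 at 0.01 uM (SE 0.21 each). Their differences at 1 uM lay between 0.41 and 0.65 in the settings other than spike-in scaling, and Psmb10 passed 1.5-fold in 4 of these. Psmb8, read by 2 probes between chr17:34337771 and chr17:34338152, was not well above background on any array, with levels between -5.13 and -4.23. The constitutive subunits that these 3 replace, Psmb5, Psmb6 and Psmb7, differed by 0.02, 0.10 and 0.10 at 1 uM. Among all 7 genes of the immunoproteasome and its activator, 6 were compared, 0 were at least 2-fold apart, and the median was 0.07 at 1 uM and 0.13 at 0.01 uM. Psme1 and Psme2, which encode the activator that interferon-γ induces, differed by 0.07 and -0.11, and the assembly factor Pomp by 0.07.

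Psmb9 and Tap1 are transcribed in opposite directions from start sites with 225 bases between them. The letters between them, at chr17:34187331-34187555 (GRCm38.p6, plus strand, reading towards Tap1), are shown because both genes share them, with the CCAAT match in capitals.
Psmb9 and Tap1 shared promoter: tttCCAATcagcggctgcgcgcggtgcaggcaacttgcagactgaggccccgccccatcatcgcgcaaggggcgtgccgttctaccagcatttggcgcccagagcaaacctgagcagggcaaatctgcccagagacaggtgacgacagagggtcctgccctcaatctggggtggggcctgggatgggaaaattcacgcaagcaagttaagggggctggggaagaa
With this stretch in common, Psmb9 differed by 0.46 (SE 0.21) and Tap1 by 0.19 (SE 0.24) at 1 uM, and the 2 values differ by less than their SEs added.

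The interferon receptors and signalling genes that act upstream of these promoters were measured on all 3 arrays. Of 12 genes 2 passed 2-fold downwards at 1 uM, where 4.93% of all genes compared did, and 0 upwards, where 5.65% did. The median was -0.02, which was 0.66 with spike-in scaling. The 2 lower genes encode inhibitors of JAK kinases. Socs1 had levels of 4.69, 4.88 and 2.72 and differed by -1.97 at 1 uM, and Socs3 had levels of 6.17, 6.69 and 5.17 and differed by -1.01. Both stayed below 0 with spike-in scaling, at -1.29 and -0.33, and Socs3 was at -0.78 with quantile normalization. The following genes are named after their values were seen. Ifngr1, the ligand-binding chain of the interferon-γ receptor, differed by -0.99. Irf9, a transcription factor that answers type I interferon, differed by 0.72. Of 11 regulators of MHC genes on the array 8 were compared, 0 were at least 2-fold apart, and the median was -0.32, or 0.36 with spike-in scaling. Of the 3 subunits of the factor that binds the Y box, Nfya differed by 0.63, with a further probe at 0.20, Nfyb by -0.23, or 0.45 with spike-in scaling, and Nfyc by 0.06. Irf1, an activator of Tap1, Psmb9 and class I genes, differed by -0.52, or 0.16 with spike-in scaling, with a further Irf1 probe at -0.06.

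**Figure D4:**
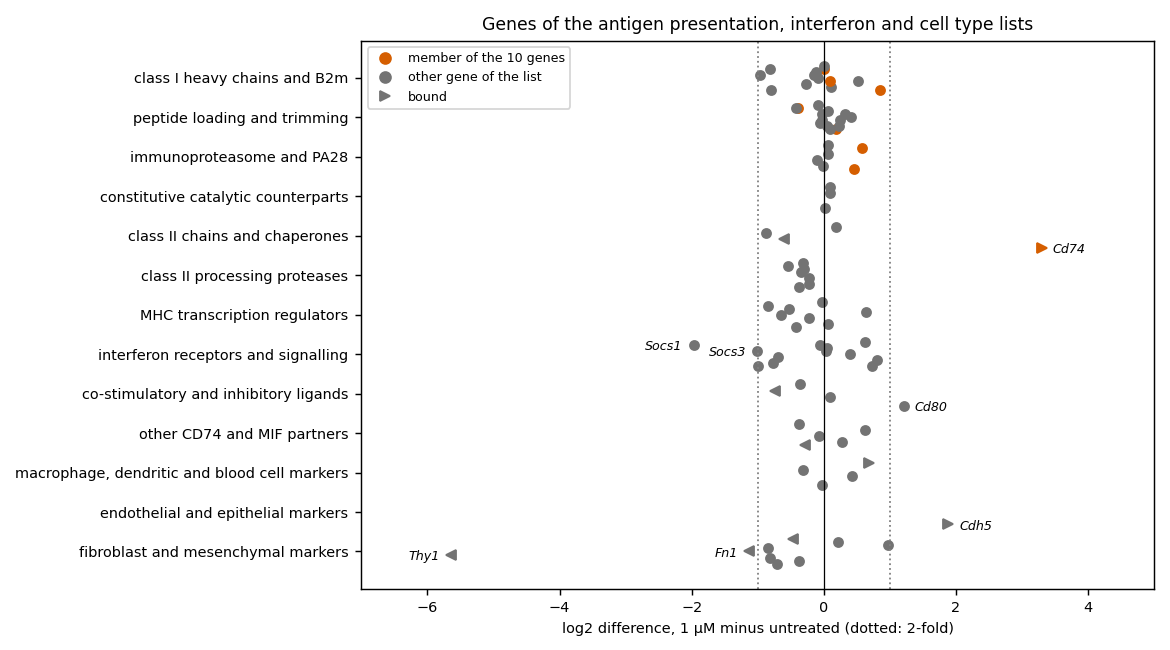
Log2 difference of 1 uM minus untreated for each gene compared in the lists of antigen presentation, interferon and cell type genes (1 point per gene at its brightest probe, triangles bounds, orange the 10 genes described here, dotted lines 2-fold). Cd74, Cd80 and Cdh5 lie more than 2-fold above 0, Socs1, Socs3, Thy1 and Fn1 more than 2-fold below, and the class I, peptide loading and proteasome genes lie between the dotted lines.

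Markers of other cells that use class II molecules were examined beside Cd74. Of 25 macrophage, dendritic and blood cell markers on the array, 3 were well above background in untreated cells, 3 at 0.01 uM and 4 at 1 uM. Their summed level was 3.33, 3.46 and 3.54 on the log2 scale, a sum that also adds the markers not well above background. Of 4 compared at 1 uM 0 were at least 2-fold apart, with a median of 0.19. Cd68, Cd14 and Lyz2 were detected on every array, and differed by -0.04, 0.43 and -0.32 at 1 uM. Aif1 was detected at 1 uM alone, with a difference from untreated of at least 0.69, a bound of 0.13 with normexp. Its difference of 1 uM from 0.01 uM lay within the detection floor. The defining markers Ptprc, Tyrobp, Laptm5, Csf1r, Itgax, Cd79a and Ms4a1 were not well above background on any array. Of 9 endothelial and epithelial markers 0, 0 and 1 were detected, the last being Cdh5, the endothelial cadherin, at least 1.88 higher at 1 uM, a bound of 0.89 with normexp. Their summed level added values not well above background on every array and is not given. Fibroblast and mesenchymal markers were detected for 13, 13 and 12 of 13 genes, with a summed level of 9.74, 10.04 and 9.37. The sums include saturated spots, whose levels move with the array scaling and not with the signal. Col1a1, for one, read 63868, 63412 and 63050 units at levels of 6.52, 6.94 and 6.39. The sums are therefore no measure of marker amounts between arrays. At 1 uM the median difference of these markers was -0.71, or -0.03 with spike-in scaling, over the 9 compared. Of these 2 lay 2-fold or more below untreated, where 4.93% of all genes compared did, and 0 above, where 5.65% did. At 1.5-fold 1 was higher, where 14.0% of all genes were, and 5 were lower. No share over all genes is given for 1.5-fold lower, so that count has no background beside it. The higher one, Lum, differed by 0.98, or 1.66 with spike-in scaling, and is named after its value was seen. Col1a1, Col1a2, S100a4 and P4hb were saturated on both arrays and gave no fold. Thy1, a fibroblast surface protein, differed by -5.65 at 1 uM and Fn1, fibronectin, by -1.14, both bounds nearest to 0. The Fn1 bound was -0.96 with cyclic loess, and further Fn1 probes lay between -1.66 and -1.29. In bulk samples, a change in the share of a cell type and a change in RNA per cell cannot be told apart. The part of other cells in the Cd74 value was not tested.

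Of the co-stimulatory and inhibitory ligands that accompany antigen presentation, 4 of 10 could be compared at 1 uM, and their median difference was -0.14, or 0.54 with spike-in scaling. Only 1 of the 4 was 2-fold apart or more, and it was higher, where 5.65% of all genes compared were. Cd80, a ligand of CD28 on T cells, had levels of -1.74, -2.12 and -0.54, the second not well above background. It was higher by 1.21 at 1 uM against untreated, with its other probe at 0.48, and by 0.84 with normexp. Cd40, Cd86, Icam1 and Icosl were not well above background on any array, and Cd274, the inhibitory ligand PD-L1, differed by -0.37.

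At 0.01 uM against untreated, 7 of the 10 genes could be compared. Of these 0 were 2-fold apart, where 0.435% of 11737 genes were, and 0 were 1.5-fold apart, where 2.06% were. By probe, 0 of 13 were 2-fold apart, where 0.457% of 17060 were. The median over the 7 genes was 0.17, against 0.04 over all genes compared, and it lay between -0.01 and 0.17 in the settings other than spike-in scaling. In the other lists 0 genes were at least 2-fold apart at this dose. Tap2 differed by 0.50 (SE 0.22), and by 0.44 to 0.52 in the settings other than spike-in scaling. The brightest B2m probe differed by 0.52 (SE 0.20), and by 0.30 with cyclic loess and 0.32 with quantile normalization. The other B2m probes differed by 0.06 and -0.43. Between the 2 doses, 1 uM against 0.01 uM, 8 genes were compared, and Cd74 and H2-K1 were at least 2-fold higher, where 5.27% of 11902 genes were. By probe, 2 of 14 were 2-fold apart, where 11.6% of 17182 were. Tap2 was the 1 gene at least 1.5-fold lower, where 17.5% were, and the median was 0.32, against -0.04 over all genes. H2-K1 passed 2-fold narrowly and by its brightest probe alone, at 1.00, and its other probes differed by 0.99, -0.07 and -0.77. With the mean of probes 1 gene was 2-fold apart in place of 2. This comparison shares an array with each of the other comparisons, so their values are not independent.

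The genes most like H2-K1 across the arrays were named by the distance between log2 levels centred on each gene's mean over the 3 arrays. With 3 points per gene, a short distance says little. No distance was taken from Cd74, which was not well above background on 2 of the 3 arrays. Among 9728 genes well above background on all 3 arrays, the nearest to the brightest H2-K1 probe were Akna at 0.0074, Panx1 at 0.012, Fdps at 0.015, Phf11a at 0.019 and L3mbtl2 at 0.022. Fdps, for one, had levels of 2.93, 2.80 and 3.79.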

How the data were processed

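Per the file headers, the authors' spot intensity values came from 1-colour Cy3 scans read with Agilent Feature Extraction, version 10.5.1.1. The authors' deposited log2 value table equalled log2 processed signal minus 1 constant per array, within 0.01 for over 99.8% of probes, so its scale, centring and direction are known. The "well above background", saturation and outlier marks are the authors' deposited scanner flags. Control and outlier spots were left out, spots of a probe averaged as log2, and the 75th percentile of all probes subtracted array by array. Genes were compared where 1 array or both were well above background and not both were saturated. A dim side, or a saturated brighter one, makes the fold a bound, taken at the dim value or at that array's lowest detected signal, whichever is higher. Where the dim value was the higher, as for Cd74 and H2-Oa against untreated, the fold carries its error and is not a strict bound. Probes were named through RefSeq tables, and coordinates are those of the array files (mm9). Alternatives were other percentiles, quantile, cyclic loess (span 0.4), spike-ins, normexp (offset 50), the deposited table, filters and thresholds. Python 3.11.15, pandas 2.3.3, R 4.3.3 and limma 3.58.1 were used, and the comparison step was tested on simulated data. The 10 genes and the lists were chosen with earlier results of these data known. Named genes were the 10 genes, list genes at least 2-fold apart against untreated or the 2 brightest of a list with none, and the 5 nearest to H2-K1 by distance (those to Cd74 were left out, since it was dim on 2 arrays). Other list genes were named after their values were seen. The 3 arrays shared 1 slide, so batches could not be separated, and precision is limited by the number of arrays.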

Additional observations from a re-analysis of the deposited data

How the results depend on the processing

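No paired analysis was possible because each group had 1 array, and no replicate could be left out. For 1 uM against untreated, the count of probes of the 10 genes and of the genes themselves at least 2-fold apart (1 and 1) was 2 and 2 with quantile normalization, where H2-K1 joined Cd74, and 6 and 4 with spike-in scaling, which also gave 20 list genes (18 higher, 2 lower, against 7, 3 higher and 4 lower) and a median of 1.01 against 0.32. With both arrays required above background it was 0 of the 10 genes and 4 list genes, since Cd74 is dropped by that filter. Without a filter 12 list genes were apart, and at 1.5-fold 2 of the 10 genes. For 0.01 uM against untreated, the median was 0.48 with spike-in scaling against 0.17, and 6 list genes were apart without a filter against 0. For 1 uM against 0.01 uM, the median was 0.70 with spike-in scaling and 0.064 without a filter against 0.32. The count of the 10 genes was 1 with both arrays required, with the mean of probes and at 3-fold, against 2, and 23 list genes were apart without a filter against 15. Spike-in scaling shifts every difference within a comparison, and the cause of that shift was not tested. Of the values of these probes at 1 uM against untreated, 95 of 112 moved by less than their scanner error. Several settings, such as the deposited table and the outlier spots kept, could hardly move a value. The 17 that moved included every value with spike-in scaling. The count is therefore no measure of how robust the values are. The split over all genes, 693 higher and 605 lower, was 799 and 536 with the 75th percentile of detected probes.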
